A study of Mus musculus with 70 samples.

Results

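Luzp2, Chrdl1, Fam163a, Wwtr1, Jam2 and Myom3 are 6 genes whose RNA was lower in the hippocampus of APP23 mice than in that of their littermates. They were selected on that measured difference, from 14260 genes listed for 69 animals. Past an adjusted p of 0.05, 13 genes were lower in APP23 mice on at least 1 of the feedings, and all 6 are among those 13. Since the genes were chosen by their TG and NTG values, these genotype differences are given as a description, without a test. Feeding averaged over both genotypes, time of day and the correlations among animals were not used to pick them, and these were tested.

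The animals were APP23 transgenics (TG; B6.Cg-Tg(Thy1-APP)3Somm/J), in which the neuronal Thy1 promoter drives a human APP that carries a familial Alzheimer mutation, and non-transgenic (NTG) littermates. Each genotype was split between ad libitum feeding (ALF) and time-restricted feeding (TRF), in which food was offered for 6 h daily, ZT15 to ZT21. Zeitgeber time (ZT) counts hours from lights on, and lights went off at ZT12. Tissue was collected at 4 times, ZT0, ZT6, ZT12 and ZT18. Mice entered TRF aged 6 to 9 months, and they were 10 to 13 months old at collection. There were 16 NTG mice under either feeding, 19 TG mice under ALF and 18 under TRF. At ZT0 each group held 6 or 7 mice, at ZT12 it held 5 or 6, at ZT6 1 to 4 and at ZT18 2 or 3. Both sexes were used, and the sex of single samples is not given. One hippocampus per mouse was read as bulk poly-A RNA, and fewer cells of a type and less RNA per cell cannot be told apart.

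The 6 genes have unlike products. Chrdl1 (chordin-like 1) encodes a secreted antagonist that binds bone morphogenetic proteins (BMPs), ligands that act through serine/threonine kinase receptors and SMAD proteins, and in brain it is known as an astrocyte-secreted factor in synapse maturation. Wwtr1 encodes TAZ, which with its relative YAP binds TEAD factors and drives their target genes. The Hippo kinases hold TAZ and YAP in the cytoplasm by phosphorylation. Jam2 encodes a junctional adhesion molecule of the immunoglobulin superfamily that engages tight-junction scaffolds, and Myom3 a protein of the muscle M-band. Luzp2 encodes a leucine zipper protein found in brain, mainly in glia. Fam163a encodes a small membrane protein of which less is known.

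All 6 are protein-coding genes on different chromosomes. On GRCm38.p6, Luzp2 lies at chr7:54835245-55268888 on the plus strand, Chrdl1 at chrX:143285674-143394263 on the minus strand, Fam163a at chr1:156075956-156205453 (minus), Wwtr1 at chr3:57455644-57575910 (minus), Jam2 at chr16:84774123-84826380 (plus) and Myom3 at chr4:135758800-135815571 (plus). Jam2 is the one with the mouse App gene nearby, whose lowest coordinate lies 178.5 kb beyond that of Jam2. App itself differed between genotypes by a log2 of -0.01 ± 0.03 (SE). Of the nearest other listed genes within 500 kb by lowest coordinate, at most 4 per member and none for Luzp2, none passed the genotype test.

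RefSeq's promoter table (GRCm38.p6) held 4 of the 6 genes, and 3 of its sequences are shown because Wwtr1 and Fam163a changed with time of day and Luzp2 did not pass that test. Each is the 250 bases before an annotated start, 5′ to 3′ on the gene's strand, and no exon of GENCODE M21 touches any of the 3 windows. They are chr3:57575911-57576160 (minus) for Wwtr1, chr1:156205027-156205276 (minus) for Fam163a, which lies within the gene's full span, and chr7:54834995-54835244 (plus) for Luzp2. Capitals mark matches on either strand to 3 motifs: CACGTG, the E-box bound by CLOCK and BMAL1; GGAATG, the TEAD motif; and AGGTCA, the half-site of ROR and REV-ERB.
Wwtr1: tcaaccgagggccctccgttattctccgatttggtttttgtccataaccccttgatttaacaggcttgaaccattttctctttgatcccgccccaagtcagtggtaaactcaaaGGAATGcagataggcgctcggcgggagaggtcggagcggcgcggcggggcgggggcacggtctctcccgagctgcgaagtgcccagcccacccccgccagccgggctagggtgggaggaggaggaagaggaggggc
Fam163a: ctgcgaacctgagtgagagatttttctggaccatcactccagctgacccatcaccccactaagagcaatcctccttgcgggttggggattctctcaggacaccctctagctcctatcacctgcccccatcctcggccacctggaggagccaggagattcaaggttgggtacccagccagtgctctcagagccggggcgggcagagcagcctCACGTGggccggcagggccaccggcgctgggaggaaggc
Luzp2: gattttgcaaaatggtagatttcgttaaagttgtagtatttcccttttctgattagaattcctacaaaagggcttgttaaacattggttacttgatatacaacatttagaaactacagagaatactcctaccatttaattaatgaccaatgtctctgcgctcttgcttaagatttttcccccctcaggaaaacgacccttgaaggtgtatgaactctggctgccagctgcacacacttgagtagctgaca
Wwtr1 held 1 TEAD motif and Fam163a held 1 E-box. A second Wwtr1 window of the table, chr3:57575877-57576126 (minus), overlaps the first, holds the same TEAD motif and also holds 1 AGGTCA, 9 bases before its start. The Luzp2 window and that of Myom3, not shown, held none of these letters. Such matches are common: of 32851 promoters of this length 12.6% held GGAATG, 6.02% held CACGTG and 14.02% held AGGTCA. They describe the sequence and say nothing of binding.

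Reads of Thy1, the gene that lends the transgene its promoter, followed the genotype labels: every TG animal had at least 101986 normalized counts (the authors' read counts after division by a factor for each library) and every NTG animal at most 29067.7. Markers of the labelled tissue were present in each animal, with Prox1, of dentate granule cells, between 885 and 2563 and Wfs1, of CA1 pyramidal cells, between 3105 and 8638. Tissue from next to the hippocampus varied: Ttr, of choroid plexus, ran from 27.6 to 215418 and Tcf7l2, of thalamus, from 133.7 to 1057. The 5 animals least like the rest in median correlation were 4 at ZT0, from NTG and TG on ALF (2 each), and 1 TG on TRF at ZT12. Most counts of list genes are also given without them. Values below are normalized counts per animal, and log2 differences are on the log2(normalized count + 1) scale with their SE.

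The genotype difference was a shift of overlapping ranges in all 6 genes. Luzp2 ran from 4795 through a median of 5618 to 7334 in NTG on ALF (n = 16) and from 4443 through 5891 to 7965 in NTG on TRF (n = 16). In TG it ran from 3732 through 4660 to 6587 on ALF (n = 19) and from 3004 through 4639 to 6241 on TRF (n = 18). Of 37 TG animals, 32 were below the NTG median and 13 below the lowest NTG animal. The log2 difference was -0.34 ± 0.05, with -0.30 ± 0.07 on ALF and -0.37 ± 0.07 on TRF.

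Chrdl1, the BMP antagonist, ran in NTG from 174 through 296 to 509 on ALF and from 179 through 290 to 392 on TRF. In TG it ran from 159 through 215 to 352 on ALF and from 117.7 through 195 to 296 on TRF. Of the 37 TG animals 35 lay below the NTG median, and the groups still overlapped. Its log2 difference of -0.48 ± 0.07 was the 4th from the lowest of 14260 genes.

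Fam163a ran in NTG from 344 through 491 to 781 on ALF and from 312.4 through 422 to 501 on TRF. In TG it ran from 255 through 362 to 521 on ALF and from 232.1 through 344 to 444 on TRF. Here too 35 of 37 TG animals were below the NTG median, and the log2 difference was -0.35 ± 0.06. It was as large on ALF (-0.38 ± 0.08) as on TRF (-0.33 ± 0.08) within these errors.

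Wwtr1 and Jam2 had the smaller differences. Wwtr1 ran in NTG from 572 through 797 to 1211 on ALF and from 543 through 751 to 929 on TRF, and in TG from 501 through 737 to 957 on ALF and from 426 through 675 to 927 on TRF. Its log2 difference was -0.21 ± 0.04, and 29 of 37 TG animals were below the NTG median. Jam2 ran in NTG from 1547 through 1834 to 2531 on ALF and from 1354 through 1690 to 2258 on TRF, and in TG from 1277 through 1644 to 2035 on ALF and from 1140 through 1442 to 1867 on TRF. The log2 difference was -0.20 ± 0.04, with 30 of 37 TG animals below the NTG median.

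Myom3 was near the lower end of the table: its mean of 50.5 normalized counts stands beside 40.9 for the lowest mean of any listed gene. It ran in NTG from 39.3 through 57.0 to 96.1 on ALF and from 27.8 through 65.0 to 107.3 on TRF, and in TG from 4.81 through 38.8 to 54.8 on ALF and from 18.97 through 37.7 to 94.0 on TRF. Of the TG animals, 36 of 37 were below the NTG median. Its log2 difference of -0.74 ± 0.13 was the lowest of all genes, and it was -0.65 without the TG animal on ALF with 4.81.

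**Figure D1:**
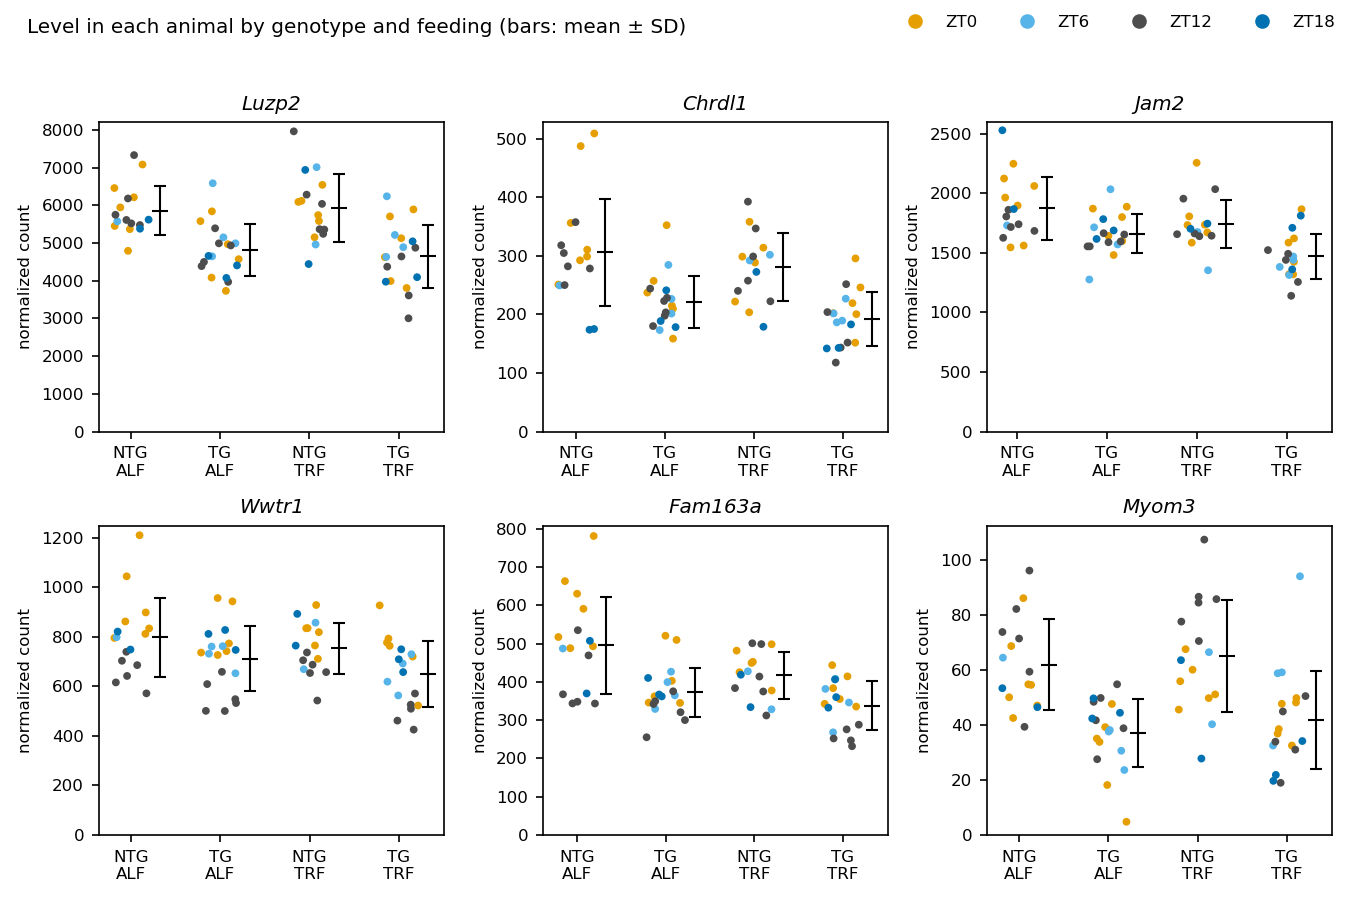
Normalized count of each gene in each animal (points, coloured by ZT), by genotype and feeding, with the mean ± SD beside each group. All axes start at 0. TG animals sit lower on both feedings and overlap the NTG animals in every panel.

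The last members inside the adjusted p threshold of 0.05 by limma were Luzp2 on ALF (log2 -0.30) and Wwtr1 on TRF (-0.26). On ALF the last gene inside was Acsbg1, no member (-0.19), and the first outside was Hbegf (-0.34). On TRF the first outside was Fam163a (-0.33), which was inside on ALF, and then Phlpp1 (-0.17). Differences at ZT0 alone and at ZT12 alone were negative for all 6 genes: -0.30 ± 0.08 and -0.46 ± 0.09 for Luzp2, -0.47 ± 0.12 and -0.63 ± 0.13 for Chrdl1, and -0.16 ± 0.07 and -0.33 ± 0.07 for Wwtr1. The change of the genotype difference between these times was tested. It passed for no member and for no gene of 14260 by limma (694 at an unadjusted p under 0.05, and 0 in every alternative run), with Wwtr1 at -0.17 ± 0.10 and an adjusted p of 0.995.

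Astrocyte markers were lower in TG by sign, and few passed the test. Of 19 astrocyte markers all 19 were lower in TG by sign, with a median log2 of -0.08 beside 0.00 over all genes, and 3 fell past the threshold. These were Acsbg1, an acyl-CoA synthetase (-0.15 ± 0.03, adjusted p = 0.0105 by limma), and the glutamate transporters Slc1a2 (-0.24 ± 0.06, 0.0117) and Slc1a3 (-0.15 ± 0.04, 0.0179). Over all genes 64 passed, 0.449%, of which 40 were lower, 0.281%. Leaving out the 5 least typical animals, 6 astrocyte markers fell, those 3 and Hepacam, S100b and Slc4a4. In that run 0.645% of all genes passed, in either direction. All 13 markers of oligodendrocyte precursors were lower by sign, median -0.12, and none passed. Of the microglial list 14 of 15 markers were higher in TG by sign and all 17 of choroid plexus were, and none of either passed. Mural cell markers were split, with 4 higher and 4 lower. Other lists were mostly lower too: 12 of 14 oligodendrocyte, 11 of 15 endothelial, 9 of 11 interneuron and 6 of 10 excitatory neuron markers. So were 6 of 7 of dentate granule cells, 5 of 5 of CA1 and 6 of 6 of neighbouring cortex. Higher by sign were 7 of 8 of meninges and 5 of 8 of CA2 and CA3. Among these lists 1 interneuron marker passed, lower. Without the 5 animals 2 interneuron markers were lower and 1 higher past the threshold.

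With the astrocyte level (the mean z score of the 19 markers) as a covariate, the genotype difference of Jam2 was -0.09 in place of -0.20, and it was -0.09 also with the oligodendrocyte precursor level. Fam163a went from -0.35 to -0.26 and -0.24, Luzp2 to -0.26 and -0.31, Wwtr1 to -0.18 and -0.20 and Myom3 to -0.55 and -0.70. Chrdl1 kept its size, at -0.49 with either covariate. The part of these cell types in the genotype differences was not tested. Astrocyte levels ran from -0.23 to 1.89 and from -0.55 to 0.67 in NTG on ALF and TRF, and from -0.82 to 0.55 and from -0.84 to 0.22 in TG.

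Partners of the members in their pathways passed the genotype test in few cases. Of 6 listed BMP ligands, 8 receptors, 9 other antagonists and 11 signal transducers and targets, none passed, although all 6 ligands were higher in TG by sign (median log2 0.08). None of 14 Hippo kinases and regulators and none of 4 YAP and TEAD genes passed, and of 19 YAP and TAZ targets 1 fell, Fjx1 (-0.20 ± 0.05, adjusted p = 0.0284 by limma). None of 19 junction partners of Jam2, 16 sarcomere genes or 7 close relatives of the members passed. Of 10 reactive astrocyte genes 1 fell, Osmr, the oncostatin M receptor (-0.28 ± 0.07, adjusted p = 0.0171 by limma), and of 12 plaque-associated microglial genes none passed. Without the 5 least typical animals Fjx1 passed and no reactive astrocyte gene did.

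Feeding lowered 1 of the 6 genes. Averaged over genotypes, Jam2 was lower on TRF by a log2 of -0.14 ± 0.04 (adjusted p = 0.0483 by limma), with ALF animals between 1277 and 2531 (n = 35, median 1715) and TRF animals between 1140 and 2258 (n = 34, median 1631). Of 34 TRF animals, 25 were below the ALF median. Over all genes 239 passed, 1.68%, with 139 lower on TRF, 0.975%. Leaving out 1 animal moved that 239 to between 113 and 347. The call is marginal: the adjusted p was above 0.05 in 8 of 15 alternatives, up to 0.36 with the oligodendrocyte precursor level as a covariate (log2 -0.08), and in 46 of 69 fits that each left out 1 animal. Without the 5 least typical animals it was 0.254 (log2 -0.11).

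The others did not pass. Fam163a came nearest, with ALF and TRF medians of 376 and 380 but highest animals of 781 and 501, a log2 of -0.19 ± 0.06 and an adjusted p of 0.058 by limma. It passed in 1 of 15 alternatives and in 8 of 69 fits without 1 animal. Wwtr1 (-0.11 ± 0.04, adjusted p = 0.162 by limma) and Chrdl1 (-0.15 ± 0.07, 0.25) were negative too. Luzp2 was -0.03 ± 0.05 (0.78 by limma) and Myom3 0.11 ± 0.13 (0.666), the one positive value.

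Within TG the feeding values were -0.18 ± 0.05 for Jam2, -0.16 ± 0.08 for Fam163a, -0.15 ± 0.06 for Wwtr1 and -0.22 ± 0.10 for Chrdl1. Within NTG they were -0.09 ± 0.06, -0.21 ± 0.08, -0.06 ± 0.06 and -0.09 ± 0.11. Luzp2 and Myom3 stood at -0.06 ± 0.07 and 0.19 ± 0.18 within TG. The differences of genotype effects between feedings lay between -0.13 ± 0.15 for Chrdl1 and 0.17 ± 0.26 for Myom3.

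**Figure D2:**
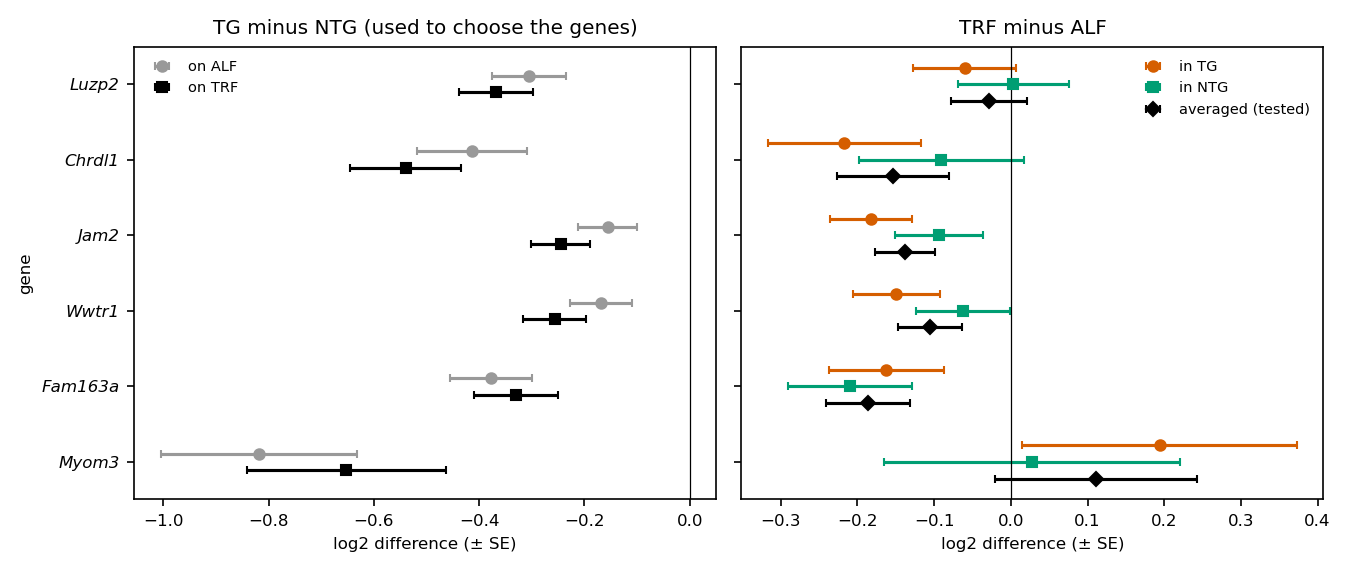
Log2 differences with SE bars for the 6 genes. Left, TG minus NTG on each feeding, which chose the genes; right, TRF minus ALF within each genotype and averaged, where Jam2 (-0.14) passed the test and the other 5 did not.

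Among glial markers, TRF moved some that mark the same cells in both directions. Over all genes 1.68% passed and 0.975% were lower on TRF. Of the astrocyte list the water channel Aqp4 (-0.30 ± 0.06, adjusted p = 0.00434 by limma) and Gfap (-0.20 ± 0.05, 0.0112) fell and the connexin Gjb6 rose (0.19 ± 0.05, 0.0432). Of 14 oligodendrocyte markers 4 fell, among them Ugt8a (-0.34 ± 0.07, 0.00435), Ermn and Mag, and all 14 were negative with a median of -0.12. Of the precursor list Gpr17 fell (-0.24 ± 0.05, 0.00917). Of the pathway lists, Mpdz, a scaffold of tight junctions, fell (-0.15 ± 0.03, 0.0112), as did the YAP and TAZ targets Dock5 and Rbms3, while the target F3, tissue factor, rose. Troponin Tnnt2 rose (0.41 ± 0.10, 0.0171), and no BMP or Hippo gene passed. Without the 5 least typical animals, 1 astrocyte (Aqp4), 1 oligodendrocyte (Ugt8a) and no precursor marker passed, and no gene of the pathway lists did. Over all genes 55 passed in that run.

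Wwtr1, Fam163a and Chrdl1 changed with time of day. Over the 4 times Wwtr1 (adjusted p = 1.36e-10 by limma's F test), Fam163a (5.51e-05) and Chrdl1 (0.00844) passed, against 35.6% of all genes. Luzp2 (0.171), Jam2 (0.0569) and Myom3 (0.121) did not. That is 3 of the 6. Jam2 passed in 3 of 14 alternatives (down to 0.0265 with the GC slope) and in 11 of 69 fits without 1 animal (0.0227 without TG_ALF_310), and Luzp2 in 1 (0.0136 with the animal number series as a factor). With ZT0 and ZT12 animals only, Chrdl1 had an adjusted p of 0.194.

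Wwtr1 was low at lights off in both genotypes. At ZT0 it ran from 712 through 835 to 1211 in NTG (n = 13) and from 523 through 769 to 957 in TG (n = 12). At ZT12 it ran from 543 through 672 to 740 in NTG (n = 12) and from 426 through 526.3 to 659 in TG (n = 11). All 23 animals at ZT12 were below the median at ZT0, and 20 of 25 animals at ZT0 were above the highest at ZT12. The groups at ZT0 and ZT12 did not overlap in NTG or TG on ALF, and the share of all genes so separated was not counted.

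The fall of Wwtr1 from ZT0 to ZT12 was -0.47 ± 0.05 (adjusted p = 1.89e-10 by limma). From ZT0 to ZT12, 26.1% of all genes passed and 12.8% were lower at ZT12. The 4 groups gave values from -0.30 ± 0.10 (NTG on TRF) to -0.58 ± 0.11 (TG on TRF). Its means at ZT6 and ZT18 were 713 ± 84.1 (SD, n = 11) and 773 ± 67.0 (SD, n = 10), between those of ZT0 (830 ± 131, n = 25) and ZT12 (600 ± 90.9, n = 23). Every alternative kept the call, with log2 values from -0.48 to -0.42.

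Fam163a fell by 0.40 on the log2 scale from ZT0 to ZT12 (SE 0.06, adjusted p = 3.97e-06 by limma). At ZT0 it ran from 378 through 493.2 to 781 in NTG and from 336 through 373 to 521 in TG, and at ZT12 from 312.4 through 380 to 535 and from 232.1 through 288 to 376. The groups were separate in TG on TRF and overlapped in the other 3, and the share of all genes so separated was not counted. Within NTG the values were -0.57 ± 0.12 under ALF and -0.13 ± 0.13 under TRF, and within TG they were -0.34 ± 0.13 and -0.54 ± 0.13. Averaged over genotypes, a difference between feedings in this change was not shown (0.12 ± 0.13, adjusted p = 0.972 by limma). That average joins a smaller fall on TRF in NTG with a larger one in TG, so it cannot decide for either genotype alone. Without the 5 least typical animals the log2 value was -0.32.

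Chrdl1 was lowest at ZT18 by its mean: 277 ± 87.9 (SD, n = 25) at ZT0, 230 ± 45.6 (n = 11) at ZT6, 248 ± 69.2 (n = 23) at ZT12 and 188 ± 40.4 (n = 10) at ZT18. Its values at ZT12 and ZT0 did not differ past the threshold (-0.16 ± 0.09, adjusted p = 0.157 by limma), nor did those at ZT18 and ZT6 (-0.36 ± 0.14, 0.168). Myom3 was the member with a positive value at ZT12, at 0.34 ± 0.15 (adjusted p = 0.071 by limma, down to 0.0323 with array weights, and passing in 3 of 13 alternatives and in 4 of 69 fits without 1 animal). Its NTG animals ran from 42.5 to 86.0 at ZT0 and from 39.3 to 107.3 at ZT12. Luzp2 (-0.05 ± 0.06, adjusted p = 0.532 by limma) and Jam2 (-0.10 ± 0.05, 0.122) did not pass.

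Between ZT6 and ZT18 no member passed, with 3.95% of all genes past the threshold. Jam2 passed in 1 of 13 alternatives, with the length slope (0.0436 by limma). The values for that pair ran from -0.36 ± 0.14 for Chrdl1 to 0.20 ± 0.08 for Jam2, and the groups at these times held as few as 1 animal. All mice at ZT6 and ZT18 carry animal numbers of one series, the 300s, and nearly all others do not. The series therefore does not differ between ZT6 and ZT18. Where either is set beside ZT0 or ZT12, series and time of sacrifice cannot be well told apart. Averaged over genotypes, no gene passed the test for a change of the feeding effect with time by limma (489 at an unadjusted p under 0.05, and 1 gene with array weights).

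**Figure D3:**
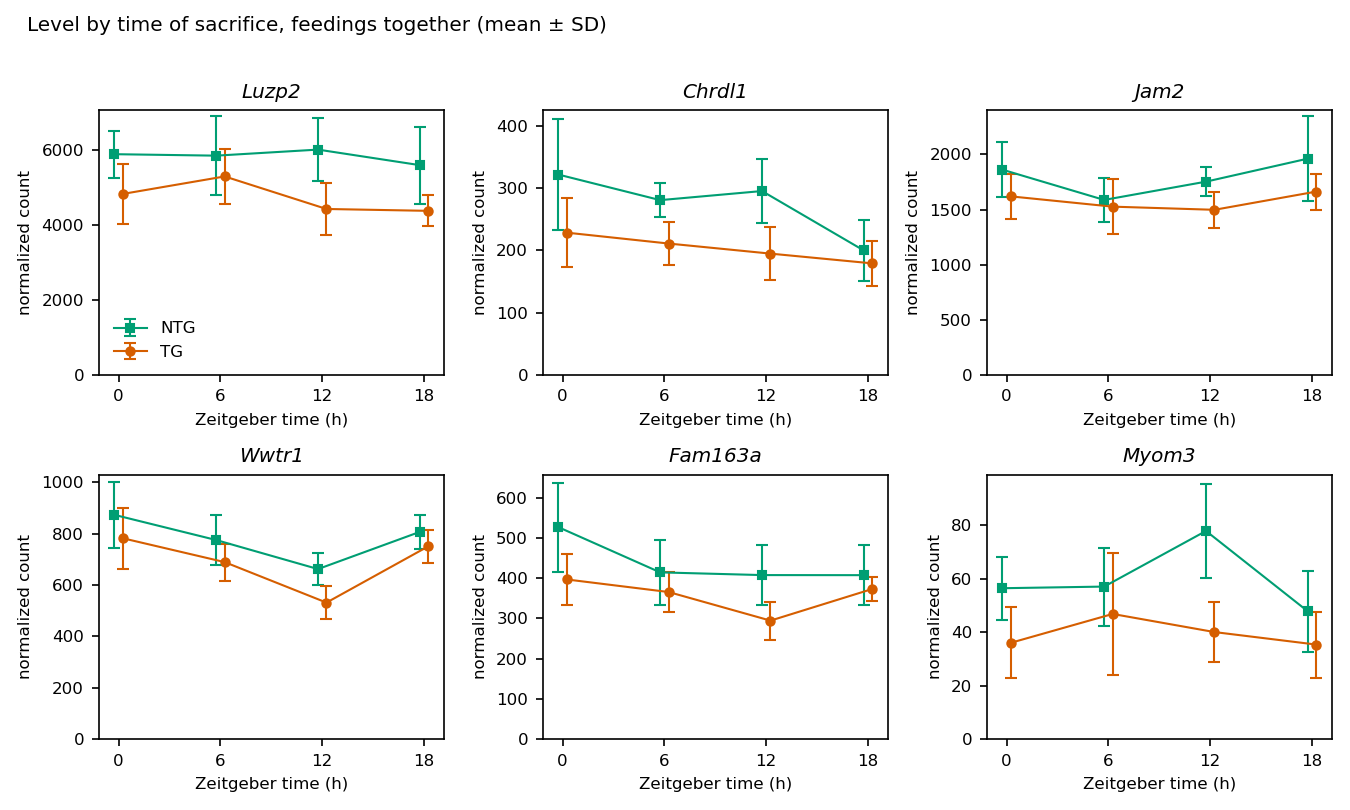
Mean normalized count ± SD at ZT0, ZT6, ZT12 and ZT18 for NTG (squares) and TG (circles), feedings together. Wwtr1 and Fam163a have their lowest means at ZT12 in TG, and TG lies below NTG at every time in all 6 panels.

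In the Hippo pathway some upstream genes were lower at ZT12. Of 14 kinases and regulators 7 fell and none rose, against 12.8% of all genes lower, with a median log2 of -0.12 beside 0.00 over all genes. They include Nf2, or merlin (-0.20 ± 0.03, adjusted p = 1.54e-05 by limma), the kinase Lats2 (-0.25 ± 0.05, 3.62e-05), Wwc1, or KIBRA (-0.21 ± 0.04, 4.01e-05), and the angiomotin Amot (-0.27 ± 0.06, 0.000235). Yap1 fell by 0.27 ± 0.06 on the log2 scale (0.000618 by limma), from a mean of 1218 ± 218 (SD, n = 25) to 1003 ± 123 (n = 23), and Tead1 by 0.25 ± 0.08 (0.0131).

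Of 19 YAP and TAZ targets 4 passed, all lower, beside 26.1% of all genes past the threshold and 12.8% lower. They were Tgfb2 (-0.30 ± 0.05, adjusted p = 2.36e-05 by limma), Dock5, Ccn1 (-0.56 ± 0.12, 0.000332) and Arhgef17. Without the 5 least typical animals 5 of 14 regulators (Amot, Amotl1, Lats2, Nf2, Wwc1), Yap1 and 4 of 19 targets were lower. With the oligodendrocyte precursor level as a covariate 3 regulators (Lats2, Nf2, Wwc1) and 2 targets were, and neither Yap1 nor Tead1. Over all genes 2370 passed without the 5 animals and 1175 with the precursor level, in either direction. The precursor level itself moved with time, as 8 of the 13 precursor markers fell at ZT12 and 2 rose (6 and 1 without the 5 animals).

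Some tight-junction genes were lower at ZT12, although Jam2 itself did not pass. Of 19 junction partners 7 fell at ZT12 and none rose, against 12.8% of all genes lower. Among the 7 were Mpdz (-0.32 ± 0.04, adjusted p = 1.37e-08 by limma), the polarity protein Pard3 (-0.25 ± 0.06, 0.000755) and Tjp1, or ZO-1 (-0.19 ± 0.05, 0.00256). Without the 5 animals 3 fell and 1 rose, where 2370 of 14260 genes passed in either direction. With the precursor level 1 fell, where 1175 genes passed. Endothelial markers moved at the same times in both directions: of 15, 7 fell, with Cldn5, of the tight junctions of vessels, at -0.79 ± 0.11, and 3 rose (6 and 3 without the 5 animals). Their part in the junction result was not tested.

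In the BMP pathway 2 of 8 receptors, 3 of 11 transducers and targets and 1 of 9 other antagonists passed at ZT12, against 26.1% of all genes. The receptors Bmpr1b (-0.22 ± 0.06, adjusted p = 0.00192 by limma) and Eng (-0.33 ± 0.09, 0.0055) fell, and the target Id3 (0.34 ± 0.09, 0.00415), the pseudoreceptor Bambi (0.35 ± 0.10, 0.00655) and the transducer Smad1 rose. None of 6 ligands passed. Of 16 sarcomere genes Casq2, the calcium store protein calsequestrin, fell (-0.95 ± 0.13, 4.71e-08), as did Myh7, and Tnnt2 rose (0.44 ± 0.12, 0.00458). Without the 5 least typical animals the same 2 receptors fell and Id3, Bambi and Smad1 did not pass. Of the transducers and targets Id2 then fell. Of the antagonists 1 rose, Fstl1, where 1 had fallen with all animals. Of the sarcomere genes 1 fell, Casq2, and 3 rose, Tnnt2 among them.

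Animals that were high in one member tended to be high in others, though no pair passed once a library property, described below, was also removed. After the mean of each group and time was removed, over 68 animals, all 15 pairs had a positive Pearson r, from 0.08 to 0.55, and 6 passed a permutation test adjusted over the 15. Luzp2 and Jam2 had r = 0.55 (Spearman 0.54, permutation p = 1e-05, the smallest these permutations can give, adjusted 0.00015). This r was 0.53 without the 2 animals farthest from the median on the Jam2 axis. Luzp2 and Wwtr1 had r = 0.54 (Spearman 0.54, permutation p = 8e-05, adjusted 0.0006). This r was 0.50 without the 2 animals farthest from the median on the Wwtr1 axis. Wwtr1 and Jam2 followed with r = 0.47 (Spearman 0.43, permutation p = 0.00042, adjusted 0.0021; 0.49 without 2).

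Luzp2 and Chrdl1 had r = 0.43 (Spearman 0.39, permutation p = 0.0035, adjusted 0.013; 0.42 without 2). Fam163a with Jam2 had r = 0.35 (Spearman 0.39, permutation p = 0.0063, adjusted 0.019; 0.40) and with Wwtr1 r = 0.34 (Spearman 0.33, permutation p = 0.014, adjusted 0.035; 0.26). Within TG alone 2 pairs passed, Luzp2 with Wwtr1 and Luzp2 with Jam2. Within NTG alone 2 different pairs did, Luzp2 with Chrdl1 and Wwtr1 with Jam2. With the astrocyte level also removed 4 passed, and with a slope of each library on transcript GC share removed no pair did. Myom3 passed with no other member.

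**Figure D4:**
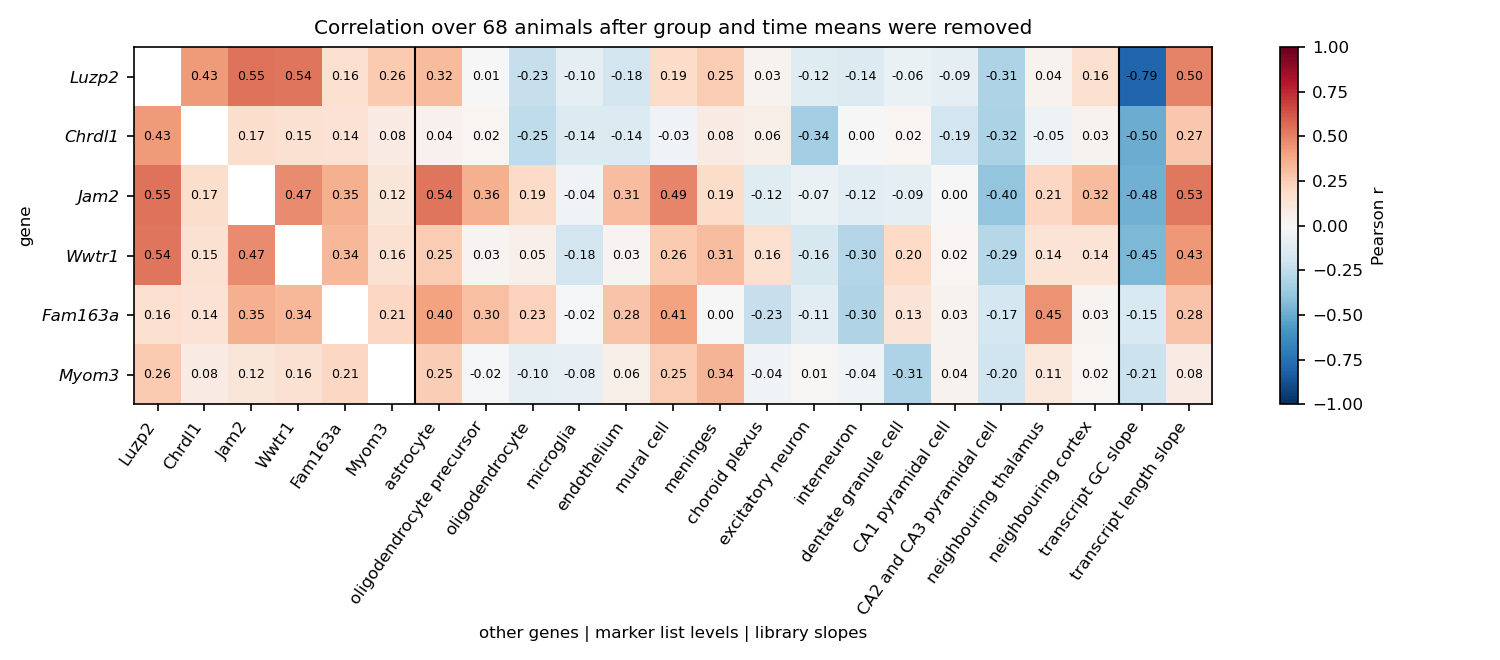
Pearson r over 68 animals after group and time means were removed. Rows are the 6 genes, and columns are the other members, the levels of 15 marker lists and 2 library slopes; red is positive and blue negative. The darkest cell is Luzp2 with the transcript GC slope, at -0.79.

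Of 90 correlations with marker list levels 3 passed, 5 by Spearman, and 8 with a slope of each library on transcript GC share also removed. Those 8 are the 3 and Luzp2 with astrocytes (0.50), Fam163a with astrocytes (0.41) and mural cells (0.41), and Jam2 with oligodendrocyte precursors (0.54) and endothelium (0.55). Jam2 followed the astrocyte level (r = 0.54, Spearman 0.55, permutation p = 0.00032, adjusted over 90 0.014; 0.49 without 2 animals) and the mural cell level (r = 0.49, Spearman 0.52, permutation p = 6e-05, adjusted 0.0054; 0.51). Fam163a followed the level of thalamic markers (r = 0.45, Spearman 0.45, permutation p = 0.0014, adjusted 0.042; 0.34). Its value within TG was 0.27 and within NTG 0.61. None of the 90 passed within TG alone or within NTG alone. Fam163a with astrocytes had r = 0.40 (Spearman 0.42, permutation p = 0.0033, adjusted 0.067, and 0.031 by Spearman), 0.51 in TG and 0.34 in NTG. Luzp2 had 0.32 with astrocytes (0.61 in TG, 0.03 in NTG), Wwtr1 0.25 (0.50 and 0.01), Myom3 0.25 and Chrdl1 0.04, and none of these 4 passed. The differences between TG and NTG in these values were not tested. No member passed with microglia, where r lay between -0.18 and -0.02.

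The genes most like Fam163a among all 14260 by this measure were Tcf7l2 (r = 0.52) and Slc17a6 (0.51), both known from thalamic neurons, with Tcf7l2 also on the thalamus list, and Tmtc2 (0.51). In that order r was 0.34, 0.32 and 0.24 within TG and 0.675, 0.66 and 0.72 within NTG, a difference that was not tested. By sign all 7 thalamic markers were lower in TG, with a median of -0.20, and lower on TRF, with -0.24, and none passed. Tcf7l2 was at -0.26 ± 0.15 by genotype and Slc17a6 at -0.26 ± 0.08. The part of thalamic tissue in the Fam163a differences was not tested. The genes most like Jam2 were Mbnl1 (0.66), Cyp2j9 (0.65) and Clasp2 (0.65), those most like Wwtr1 were Magt1 (0.65), Pptc7 (0.62) and Erp44 (0.62), and those most like Myom3 were Tnfrsf11b (0.51), Ddx25 (0.50) and Cenpe (0.50).

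Luzp2 tracked a property of the library more closely than any other member. For each library the slope of log2 values on the GC share of each gene's longest GENCODE M21 transcript was taken, with 13725 of 14260 genes matched (96.2%). Luzp2 had r = -0.79 with this slope (Spearman -0.79, permutation p = 1e-05, adjusted over 12 0.00012; -0.78 without 2 animals). Chrdl1 had -0.50 (Spearman -0.49, permutation p = 5e-05, adjusted 0.0003), Jam2 -0.48 (Spearman -0.42, permutation p = 0.00057, adjusted 0.0014) and Wwtr1 -0.45 (Spearman -0.46, permutation p = 0.0016, adjusted 0.0032). Fam163a (-0.15) and Myom3 (-0.21) did not pass. The slope on transcript length, itself correlated with the GC slope (r = -0.54), passed for Jam2 (r = 0.53, Spearman 0.51, permutation p = 1e-04, adjusted 0.0003), Luzp2 (0.50, Spearman 0.49, permutation p = 9e-05, adjusted 0.0003) and Wwtr1 (0.43, Spearman 0.38, permutation p = 0.003, adjusted 0.0051), and not for the other 3.

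The transcript of Luzp2 has a GC share of 38.2%, above only 2.27% of genes, and those of Chrdl1, Wwtr1 and Jam2 have 41.0%, 43.9% and 45.8%. Fam163a and Myom3 stand at 52.2% and 55.2%. Its closest genes, Zmym2, Arhgap5 and Stag2 (r = 0.83, 0.83 and 0.81), did not differ by genotype past the threshold (-0.03 ± 0.05, -0.06 ± 0.06 and -0.03 ± 0.04), nor did those of Chrdl1, which were Zmpste24 (r = 0.63), Zfp607b (0.58) and Bdp1 (0.57). With the GC slope also removed, none of the 15 pairs of members passed. Luzp2 with Chrdl1 was then at 0.06, while the other 5 pairs that had passed were between 0.30 and 0.33, each with an adjusted permutation p of 0.065. The genotype differences were nearly as large with the slope as a covariate, at -0.32 for Luzp2, -0.46 for Chrdl1, -0.35 for Fam163a, -0.20 for Wwtr1, -0.19 for Jam2 and -0.73 for Myom3.

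**Figure D5:**
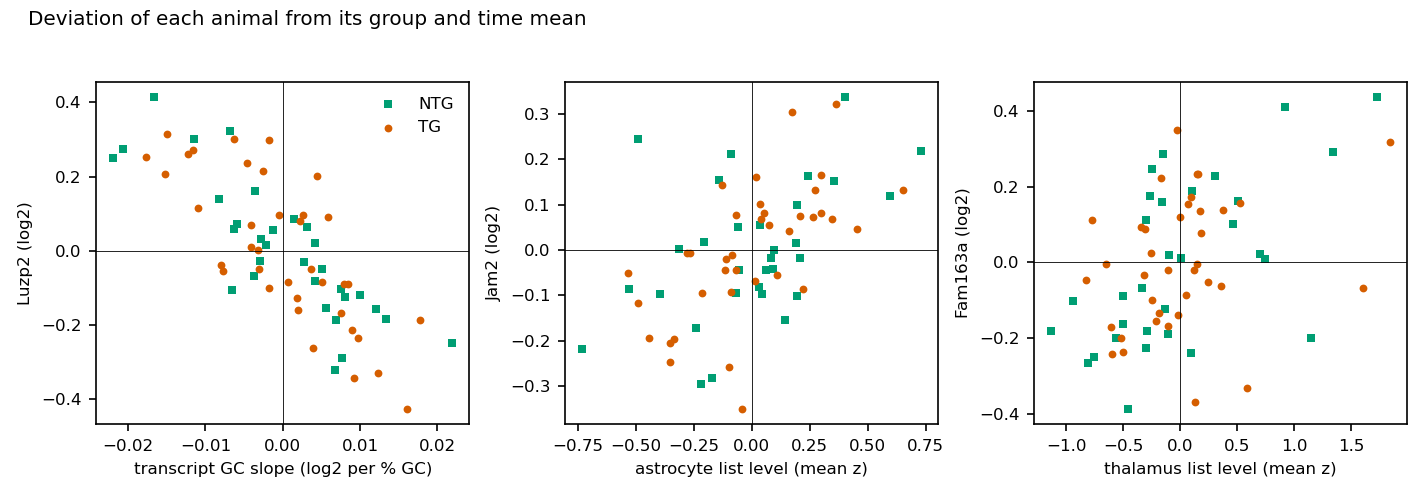
Deviation of each animal from its group and time mean (68 animals; squares NTG, circles TG): Luzp2 against the transcript GC slope (r = -0.79), Jam2 against the astrocyte level (0.54) and Fam163a against the thalamus level (0.45). All y axes are in log2.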

How the data were processed

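Poly-A RNA was sequenced as paired reads on a NovaSeq 6000 and trimmed with Trimmomatic, as the labels' protocols state. The tools HISAT2, featureCounts and DESeq2 and the build GRCm38 are listed in the submitters' processing notes, and versions and settings are not given in the sources used here. The deposited values are the authors' normalized signal, that is each gene's read count over a library factor. Values are whole multiples of 1 step per library within 0.01 of a step; taken as 1 read, it gives 27863261 to 47093814 reads in listed genes per library, and as few as 4 reads of Myom3 in 1 animal. Strand use in counting is not given in the sources used here. The 70 libraries were taken as 69 animals: libraries 232 and 232R (NTG, TRF, ZT12) were averaged as 1 animal, which the labels do not state. By mean chi-square per gene they differed by 140.4, above 16 of 20 other pairs of that set, and they were also run as 2 animals. The samples are separate mice by number.

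Values were analysed as log2(value + 1) with limma 3.58.1 in R 4.3.3 (variance trend, robust), 2-sided, Benjamini-Hochberg over 14260 genes, threshold 0.05, with no filter beyond the authors'. Genotype, feeding and the F test of time used 4 group means plus time, and single times used 16 means. Correlations used residuals from the 16 means, with 100000 permutations within group and time (20000 without the 2 farthest animals). The only animal of NTG on ALF at ZT6 has no residual, which leaves 68. The fit was checked on simulated data.

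The 6 genes and all lists were chosen with earlier results of these data known. From each list at most 4 genes past the threshold were named, by smallest p. For each member the 3 genes of highest r and at most 4 neighbours were named. Single genes named beyond this rule were chosen after their values were seen. Some single genes of the lists are not reported here.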

Additional observations from a re-analysis of the deposited data

Results flagged for a closer look

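Of 60 sets of one gene in one group at one time, with 4 to 7 animals each, 1 held an animal far from the others. Jam2 was 2257.5 normalized counts in NTG mouse 8 on TRF at ZT0, and the other 5 of that set lay between 1587 and 1807. On the log2 scale the gap to the next animal was 0.631 of the range of the 6. About 1 in 20 such sets is picked out by chance. Without this mouse the log2 feeding difference of Jam2 was -0.15, the largest fall among the fits that left out 1 animal.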

How the results depend on the processing

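Wwtr1 and Fam163a kept their fall at ZT12 in every alternative, and no genotype value of a member changed sign. Counts of genes past the threshold moved more. For feeding, 239 became 30 with no term for time, 61 with ZT0 and ZT12 only, 60 with the oligodendrocyte precursor level, 381 with the GC slope and 55 without the 5 least typical animals (113 to 347 when 1 animal was left out, with 113 to 158 without any one of NTG_ALF_1, NTG_ALF_22, NTG_TRF_118, NTG_TRF_142, NTG_TRF_202, NTG_TRF_204 and TG_TRF_104). For time (F), 5073 became 2868 with the precursor level (4548 to 5444). For ZT12 minus ZT0, 3725 became 1175 and, without the 5 animals, 2370 (3140 to 4172). For ZT18 minus ZT6, 563 became 879 with the GC slope, 1085 with the length slope and 881 without the 5 (343 without NTG_ALF_325, 344 without NTG_TRF_326, up to 721). Feeding by time went from 0 to 1 with array weights, and from 0 to 1 without NTG_TRF_118. The share of genes past the genotype test went from 0.449% to 0.238% (ZT0 and ZT12 only), 0.715% (number series), 0.281% (astrocyte level), 0.266% (precursor level), 1.003% (array weights), 0.806% (GC slope) and 0.827% (length slope). The 6 member pairs became 2 in TG, 2 in NTG and 0 with the GC slope removed. The 3 list correlations became 1 (astrocyte level removed), 0 in TG, 0 in NTG and 8 (GC slope removed). The causes were not tested.

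Signs changed only in values past no threshold. In feeding, Luzp2 was 0.0041 (GC slope), 0.017 (length slope) and 0.013 (without the 5), and Myom3 -0.025 (array weights). At ZT12, Luzp2 was 0.021 (length slope) and 0.0092 (without the 5), and Jam2 0.0021 (precursor level). Fam163a at ZT18 against ZT6 ran from -0.080 to 0.033 as 1 animal was left out. In feeding by time, Chrdl1 was -0.025 (array weights) and -0.011 (length slope), with -0.046 to 0.090 without 1 animal, Fam163a -0.016 (without the 5), and Jam2 -0.013 (astrocyte level), -0.038 (array weights), -0.018 (length slope) and -0.012 (without the 5). In genotype by time Jam2 was 0.0031 (number series) and 0.013 (precursor level). Among correlations, Jam2 with Myom3 was -0.0099 (astrocyte level removed), Chrdl1 with Myom3 -0.061 (NTG), -0.095 (without 2 animals) and -0.034 (GC slope), Chrdl1 with Wwtr1 -0.097 and with Jam2 -0.088 (GC slope).

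The GC slope, the length slope, the set of 5 animals and the counting of the averaged libraries as 2 animals, which moved no count by over 1.5 times, were chosen after seeing the data. No paired analysis was possible because the groups share no replicate numbers. The model without time gives no test of times, ZT0 and ZT12 alone give no ZT18 against ZT6, a mean of at least 100 removes Myom3, and leaving out the 1 NTG ALF animal at ZT6 leaves no ZT18 against ZT6.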
